A study of Mus musculus with 9 samples.

Results

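The genes described here are 47 regulators of chromatin and DNA methylation, chosen by name: enzymes that write, maintain or remove methyl groups on DNA and methyl or acetyl groups on histones, and proteins that bind or reshape nucleosomes. Of the 47 genes, 45 were read by a probe set annotated to 1 gene, out of 19938 genes measured in that way on Affymetrix Mouse Gene 1.0 ST arrays, and Hmga1 and Suv39h1 were not analysed here. Where a gene had several probe sets, the one with the highest mean log2 intensity was kept. RNA came from 5 hepatocellular carcinomas (HCC) of bitransgenic AFP-Cre/Rosa26-lsl-NICD mice and from 4 healthy livers of monotransgenic Rosa26-lsl-NICD mice, with 1 array per sample. Rosa26-lsl-NICD is a Cre-inducible allele of the Notch1 intracellular domain, which both groups carried. Cre under the promoter of alpha-fetoprotein (AFP), a gene of fetal hepatoblasts, was present in the tumour-bearing mice only. The mice, hybrids of 129 and C57BL/6, were between 6 and 12 months of age, and the protocol calls the controls age-matched without giving an age per animal. Each tumour was compared with the liver of a mouse of another genotype. The tumour state and the activated transgene therefore cannot be told apart. The sources used here do not give sex, litter or the animal behind each array, so p-values reflect only how far these arrays spread, which may in part be technical. The comparison asks which chromatin regulators differed in transcript level between Notch-driven tumours and control liver.

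DNA methylation at CpG sites is copied after each round of replication by Dnmt1, which is guided to newly copied DNA by Uhrf1, while Dnmt3a and Dnmt3b can methylate unmarked DNA and the Tet enzymes oxidise the mark. Polycomb complexes methylate histone H3 at lysine 27 and compact genes, and the heterochromatin proteins HP1 bind histone H3 methylated at lysine 9. Several of these factors are most abundant in dividing cells, and most cells of the adult liver are at rest. In whole tissue, a change in the share of a cell type cannot be told apart from a change in RNA per cell.

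The values below are RMA intensities on the log2 scale, given per array in the order of the array numbers and as mean ± SD with n = 5 HCC arrays and n = 4 control arrays. Array medians lay between 91.5 and 101 linear intensity units. Notch1 itself measured 7.40 ± 0.16 in HCC and 7.11 ± 0.13 in control liver, on a probe set whose position relative to the NICD part was not examined. HCC arrays varied more than control arrays, with a root mean square distance from the group mean of 0.27 to 0.38 against 0.15 to 0.22. Summed over 19 proliferation genes, linear intensity was 13627, 6463, 7001, 8896 and 6484 on HCC arrays 1 to 5, against 3747 to 4155 on the control arrays. Of the 19, 3 (Top2a, Mcm6 and Rrm1) passed limma as higher (15.8%, against 0.858% of all genes). In 13 of the 19 (68.4%, against 5.63% of all genes) every HCC array lay above every control array. Among 10 hepatocyte genes, Pck1 alone passed, as lower (limma adjusted p = 0.0460), where 0.16% of all genes were called lower. The sum over these 10 was 77482 on HCC array 5 and 57175 to 63958 on the other HCC arrays, next to 77609 to 82180 on the control arrays. Among 6 biliary markers, Sox9 alone passed limma, as higher (16.7%, against 0.858% of all genes). In 4 of the 6 (66.7%, against 5.63% of all genes) every HCC array lay above every control array. Krt7 and Krt19 overlapped, with Krt19 at 6.01 and 6.04 on HCC arrays 3 and 4 against 5.79 to 6.21 on the control arrays. The sum over the 6 was higher on all HCC arrays, at 1033 to 3743 against 549 to 608. The ranges of HCC and control overlapped for 8 macrophage genes (3180 to 12316 in HCC, with the highest value on array 2, against 3260 to 7698), 9 lymphocyte genes (801 to 1890 against 937 to 1196), 7 endothelial genes (1469 to 3187 against 2683 to 3192), 8 stellate cell genes (1267 to 1439 against 1387 to 1666) and 5 erythroid genes (471 to 1697, highest on HCC array 5, against 606 to 683). The endothelial sum was below every control on HCC arrays 1, 3, 4 and 5 (1469, 2162, 1804 and 2367). The erythroid sum was below every control on HCC arrays 1 to 4 (471 to 550). On HCC array 1 the macrophage genes diverged. Vsig4 (5.14), Cd5l (5.82), Clec4f (7.13), Adgre1, Marco and Csf1r were below every control there, and Lyz2 (11.07) and Cd68 (9.35) above. RMA values do not reach 0, and no detection calls were used, so no marker was read as absent. Xist, transcribed from an inactive X chromosome, was high on HCC arrays 1 and 2 (11.14 and 11.13) and low on the other HCC arrays (4.92 to 5.10), and high on 3 controls (10.68 to 11.76) and low on control array 4 (4.83). The part of these differences in the results below was not tested, except where a value with Xist as a covariate or without an array is given.

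Hells and Cbx5 rose in HCC, and no member fell, at an adjusted p of 0.05 in limma. Those 2 of 45 members (4.44%) stand beside 0.858% of all genes called higher, and the 0 lower calls beside 0.16% of all genes called lower. In 11 members (24.4%) every HCC array lay above every control array, as in 5.63% of all genes, and 1 member, Smyd2, lay below on every HCC array, as in 3.86% of all genes. At an unadjusted p below 0.05, 16 members were higher and 1 lower (10.5% and 9.85% of all genes). The log2 change was positive for 32 members (71.1%, against 42.5% of all genes), with a median of 0.18 over the 45 members and of -0.03 over all genes. The members were chosen with earlier results of these data known, so these counts describe the list and are not a test of it. HCC array 1 held the highest HCC value in 22 of 45 members (48.9%, against 24.5% of all genes) and in 7 of the 11 members with HCC above control. HCC array 5 held the lowest HCC value in 7 of those 11. Without HCC array 5, 8 members were called higher (3.16% of all genes were) and none lower (2.79% of all genes were), the 8 being Hells, Cbx5, Hmgb2, Arid2, Ezh2, Kdm1a, Dnmt1 and Cbx3. The count was 1 (Hells) without HCC array 1 or 2, and 0 without HCC array 3, HCC array 4 or any 1 control array. Higher calls over all genes also fell, from 171 in the main fit to 115, 66, 49 and 34 without HCC arrays 1 to 4. They were 15, 13, 10 and 31 without control arrays 1 to 4.

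**Figure D1:**
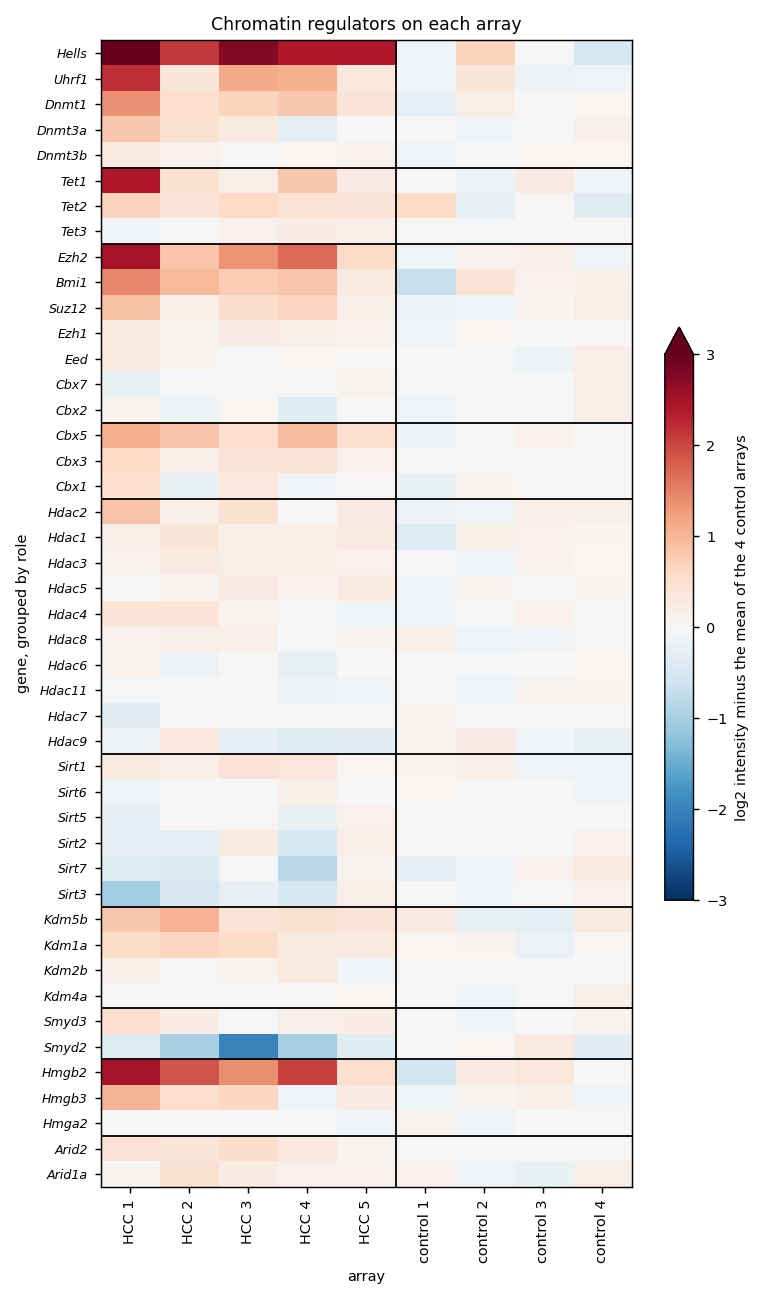
Log2 intensity of 45 chromatin regulators on each array (columns, HCC arrays 1 to 5 on the left and control arrays 1 to 4 on the right) minus the mean of the 4 control arrays, with genes grouped by role between black lines. Hells on HCC array 1 lies beyond the colour scale. Hells is above the control mean on every HCC array, and Ezh2, Hmgb2, Tet1 and Uhrf1 each have their strongest colour on HCC array 1.

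**Figure D2:**
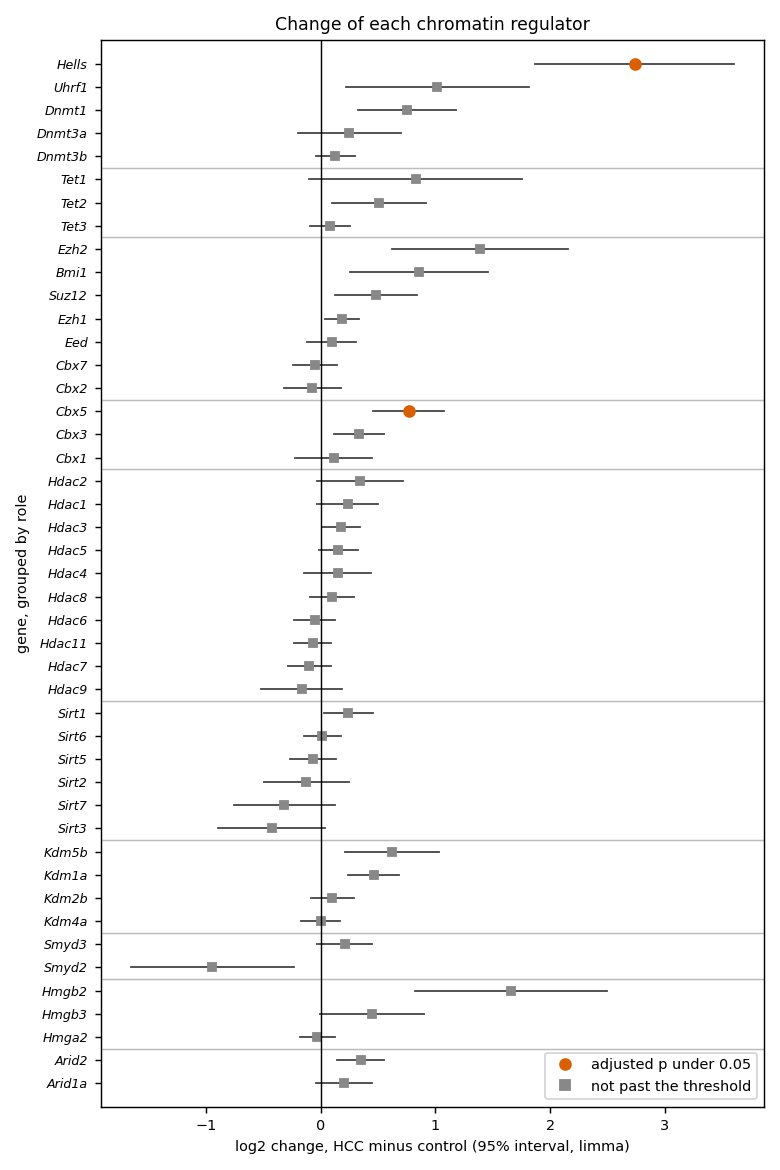
Log2 change of each regulator, HCC minus control, with its 95% interval from limma, grouped by role. Hells and Cbx5 (orange circles) passed the adjusted p threshold of 0.05, and the other 43 genes (grey squares) did not.

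Among the genes of DNA methylation, Hells rose 6.67-fold. Hells (LSH) is a helicase of the SNF2 family that opens nucleosomal DNA to the methylation machinery and is needed for normal DNA methylation in mouse embryos. It measured 9.83, 7.92, 8.56, 8.22 and 8.21 on the HCC arrays, against 5.67, 6.48, 5.80 and 5.29 on the control arrays. The lowest HCC array was well above the highest control, with a mean of 8.55 ± 0.75 in HCC and 5.81 ± 0.49 in control liver. The log2 change was 2.74 (95% interval 1.87 to 3.60, SE 0.39, limma adjusted p = 0.0245), which ranked 24 among the 19938 genes. The change stayed between 2.42 and 2.96 when any single array was left out. The call did not: the adjusted p was 0.0582 without HCC array 3, 0.0617 without HCC array 4, and 0.107, 0.0604, 0.105 and 0.0679 without control arrays 1, 2, 3 and 4. Adding the Xist level to the fit gave a change of 2.93 (adjusted p = 0.0230).

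Dnmt1 and Uhrf1, the pair that copies methylation at replication, were higher on average but did not pass the test. Dnmt1 measured 9.42, 8.54, 8.72, 8.86 and 8.43 in HCC, against 7.80, 8.24, 8.03 and 8.10 in control liver. All 5 HCC arrays exceeded all controls, at a fold of 1.68 (log2 change 0.75, 95% interval 0.32 to 1.18, adjusted p = 0.0917; 0.0401 without HCC array 5 and 0.0826 to 0.218 without any 1 other array). Uhrf1, which recognises hemimethylated CpG, measured 9.33, 7.49, 8.28, 8.21 and 7.45 in HCC, against 7.06, 7.49, 6.99 and 7.01 in control liver. HCC arrays 2 and 5 were no higher than control array 2, and the 2.02-fold difference had an interval of 0.22 to 1.81 on the log2 scale (adjusted p = 0.165). HCC array 1, with the highest summed proliferation genes, was the highest array for Hells, Dnmt1 and Uhrf1. For Uhrf1 the next highest were HCC arrays 3 and 4, which also followed array 1 in summed proliferation genes. The order of the arrays differed between single genes of that sum, and a link to proliferation was not tested.

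Neither methyltransferase of unmarked DNA passed the test. Dnmt3a measured 8.83, 8.47, 8.32, 7.72 and 7.99 in HCC, against 8.02, 7.93, 7.95 and 8.16 in control liver. HCC array 4 lay below every control and HCC arrays 1 to 3 above every control, so the log2 change of 0.25 had an interval from -0.20 to 0.70 (adjusted p = 0.503). Dnmt3b measured 6.88, 6.71, 6.62, 6.64 and 6.73 in HCC, against 6.46, 6.61, 6.64 and 6.64 in control liver, an overlapping pair of groups with a log2 change of 0.13 (interval -0.04 to 0.30, adjusted p = 0.370). Within an array, Dnmt1 minus Dnmt3a averaged 0.53 ± 0.39 in HCC and 0.03 ± 0.22 in control liver, a difference of 0.50 that did not pass an exact permutation test over 8 pairs of related genes (two-sided p = 0.0476, adjusted p = 0.0762). Dnmt3b minus Dnmt3a changed by -0.12 (adjusted p = 0.762 in the same exact test).

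The promoters of Hells, Dnmt1 and Ezh2 are shown because these genes were higher together on all HCC arrays and because each holds letters of the E2F motif, which the E2F factors of the cell cycle bind. They were picked after the matches were seen. Sequences are from RefSeq (GRCm38.p6), run 5′ to 3′ on the gene's strand from 250 bases before to 50 bases after an annotated start, and have every match to TTNNCGC with CC, GG, CG or GC at NN, on either strand, in capitals.
Hells, chr19:38930740-38931039, plus strand: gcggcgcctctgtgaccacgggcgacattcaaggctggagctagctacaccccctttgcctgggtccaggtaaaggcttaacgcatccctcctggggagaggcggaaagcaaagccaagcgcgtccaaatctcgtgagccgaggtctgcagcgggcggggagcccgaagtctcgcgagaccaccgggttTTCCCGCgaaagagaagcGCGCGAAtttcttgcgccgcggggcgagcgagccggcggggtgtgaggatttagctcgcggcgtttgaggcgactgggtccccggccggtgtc
Dnmt1, chr9:20952574-20952873, minus strand: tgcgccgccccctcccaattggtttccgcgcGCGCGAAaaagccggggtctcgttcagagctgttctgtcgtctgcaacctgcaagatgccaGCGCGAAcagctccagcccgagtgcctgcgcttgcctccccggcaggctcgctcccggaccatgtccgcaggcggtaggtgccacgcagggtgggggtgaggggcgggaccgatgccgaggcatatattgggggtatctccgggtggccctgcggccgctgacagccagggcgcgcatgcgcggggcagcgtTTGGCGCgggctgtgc
Ezh2, chr6:47594981-47595280, minus strand: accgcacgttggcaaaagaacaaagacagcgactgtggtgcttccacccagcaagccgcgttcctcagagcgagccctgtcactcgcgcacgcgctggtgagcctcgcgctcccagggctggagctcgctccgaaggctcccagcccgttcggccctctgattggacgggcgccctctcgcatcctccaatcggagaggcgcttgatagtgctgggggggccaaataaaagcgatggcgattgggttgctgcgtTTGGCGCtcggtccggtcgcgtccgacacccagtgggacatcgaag
The Hells window held 2 matches, 61 and 43 bases before the start, the printed Dnmt1 window 3 and the Ezh2 window 1. Dnmt1 also had windows at other annotated starts (chr9:20952930-20953229 and chr9:20959839-20960138), which held none. In all, 57 promoter windows of 40 measured members were found, of which 12 windows (21.1%) of 11 genes held a match, as did 9.57% of all 32851 windows in the table. Of the 13 windows (9 genes) of members with HCC above control on all arrays, 5 (38.5%) held one, and of the 44 windows (31 genes) of the other members 7 (15.9%). Neither window of Cbx5 held one, nor did those of Hmgb2 and Kdm1a. The member windows had a median of 22 CpG dinucleotides, against 7 over all windows. The median was 29 in the 13 windows and 22 in the 44, and every E2F match holds a CpG. Windows of the same gene are not independent, and the shares with an E2F match were not compared by a test. The shares for the other motifs lay closer to the background: 19.3% against 19.2% for TTTGAA or TTCGAA (the CHR element of cell cycle genes), 42.1% against 37.4% for CCAAT, and 22.8% against 25.6% for TGGGAA, the core bound by the Notch partner Rbpj. No E2F match overlapped another motif or another E2F match in the member windows. A match describes the letters and is not evidence of a bound site.

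None of the 3 Tet enzymes passed. Tet1 measured 9.06, 7.12, 6.86, 7.48 and 6.91 in HCC, against 6.67, 6.51, 6.91 and 6.54 in control liver, with HCC array 1 far above the other 4, HCC array 3 in the control range and HCC array 5 level with the highest control (log2 change 0.83, adjusted p = 0.290). Its other 2 probe sets were also highest on that array, with the smallest change of the 3 probe sets at 0.34. Tet2, the member of this group with the smallest adjusted p (0.173), measured 7.80, 7.50, 7.71, 7.54 and 7.50 in HCC, against 7.69, 6.87, 7.14 and 6.72 in control liver. Here the overlap came from control array 1 alone. Tet3 changed by 0.08 (interval -0.09 to 0.26).

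Of 7 Polycomb subunits none passed, and Ezh2 had the largest difference. Ezh2 and Ezh1 are alternative catalytic subunits of Polycomb repressive complex 2, with Ezh2 the form of dividing cells and Ezh1 also present in resting ones. Ezh2 measured 10.66, 8.99, 9.51, 9.87 and 8.75 in HCC, against 8.05, 8.27, 8.32 and 8.04 in control liver. All HCC arrays were above all controls, by 2.62-fold on average (log2 change 1.39, interval 0.62 to 2.16, adjusted p = 0.0866; 0.0276 without HCC array 5 and 0.0790 to 0.207 without any 1 other array). The order of the HCC arrays, 1, 4, 3, 2 and 5, followed that of the summed proliferation genes except that arrays 2 and 5, close in that sum, changed places. Single genes of the sum differed in order. Top2a was higher on HCC array 2 than on array 3 (8.55 and 7.96), and Mcm6 was lower (8.65 and 9.34). A link of Ezh2 to proliferation was not tested. Ezh1 measured 8.04, 7.87, 8.01, 7.93 and 7.89 in HCC, against 7.69, 7.83, 7.75 and 7.79 in control liver. These groups did not overlap either, but the fold was 1.14 (log2 change 0.18, interval 0.04 to 0.33, adjusted p = 0.171). Ezh2 minus Ezh1 within an array averaged 1.61 ± 0.69 in HCC and 0.41 ± 0.14 in control liver, higher on 5 of 5 HCC arrays than on every control. This unequal change passed the exact permutation test (difference 1.20, two-sided p = 0.0159, adjusted p = 0.0423 over 8 pairs).

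The other core subunits of this complex, Suz12 and the H3K27 reader Eed, had log2 changes of 0.48 (interval 0.13 to 0.84, adjusted p = 0.149) and 0.09 (interval -0.12 to 0.30). Bmi1, a subunit of Polycomb repressive complex 1, measured 10.18, 9.69, 9.50, 9.56 and 9.01 in HCC, against 8.04, 9.15, 8.86 and 8.88 in control liver. Only HCC array 5 fell within the control range, and the log2 change was 0.86 (adjusted p = 0.134). Cbx2 and Cbx7, chromodomain subunits of the same complex, were close to level. Cbx2 measured 7.98, 7.75, 7.97, 7.54 and 7.91 in HCC, against 7.80, 7.89, 7.84 and 8.10 in control liver. Cbx7 measured 6.61, 6.79, 6.81, 6.80 and 6.93 in HCC, against 6.78, 6.77, 6.79 and 7.01 in control liver. Both sets of groups overlapped, with log2 changes of -0.07 (interval -0.32 to 0.17) and -0.05 (interval -0.24 to 0.14), and the difference between the genes changed by -0.03 (adjusted p = 0.810 in the exact permutation test).

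Cbx5 rose 1.70-fold. Cbx5, Cbx1 and Cbx3 encode HP1 alpha, beta and gamma, which bind histone H3 methylated at lysine 9 and hold heterochromatin together. Cbx5 measured 10.08, 9.83, 9.48, 9.90 and 9.46 in HCC (9.75 ± 0.27), against 8.83, 8.97, 9.11 and 9.02 in control liver (8.98 ± 0.12). The lowest HCC array exceeded the highest control by more than the whole control range. The log2 change was 0.77 (interval 0.46 to 1.08, SE 0.14, limma adjusted p = 0.0460). That call ended after repeated quantile normalisation (adjusted p = 0.0669), with a trended and robust prior (0.0512), with the replicate block (0.0630), and without any 1 array other than HCC array 5 (0.0574, 0.0762, 0.0655 and 0.0952 without HCC arrays 1 to 4, and 0.140, 0.126, 0.131 and 0.108 without control arrays 1 to 4), while the log2 change stayed between 0.64 and 0.84 in all alternatives run.

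Cbx3 measured 11.48, 11.07, 11.28, 11.27 and 11.02 in HCC, against 10.87, 10.87, 10.91 and 10.90 in control liver. The groups did not overlap, and the log2 change was 0.34 (interval 0.12 to 0.55, adjusted p = 0.116; 0.0490 without HCC array 5 and 0.107 to 0.238 without any 1 other array). Its 7 probe sets gave changes between 0.23 and 0.36, and probe sets of near-identical copies can share signal. Within an array Cbx3 minus Cbx5 was 1.47 ± 0.21 in HCC and 1.90 ± 0.10 in control liver, a difference of -0.43 that passed the exact permutation test (two-sided p = 0.0238, adjusted p = 0.0476; 0.0889 after repeated quantile normalisation). Cbx1 changed by 0.11 (interval -0.23 to 0.45).

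The 10 zinc-dependent histone deacetylases had log2 changes between -0.17 (Hdac9) and 0.34 (Hdac2), and none passed. Hdac3, the catalytic subunit of the nuclear receptor corepressor complexes, had the smallest adjusted p of the group (0.215). It measured 7.43, 7.55, 7.46, 7.49 and 7.43 in HCC, against 7.23, 7.17, 7.43 and 7.35 in control liver. The lowest HCC arrays and control array 3 were level to 2 decimals, so the groups barely separated, at a log2 change of 0.18 (interval 0.01 to 0.34). Hdac1 and Hdac2 are paralogous catalytic subunits of the same complexes. Hdac1 measured 9.69, 9.90, 9.70, 9.70 and 9.79 in HCC, against 9.14, 9.70, 9.65 and 9.60 in control liver. Hdac2 measured 11.88, 11.18, 11.49, 11.06 and 11.29 in HCC, against 10.87, 10.91, 11.19 and 11.18 in control liver. Their groups overlapped, with changes of 0.23 (interval -0.03 to 0.50) and 0.34 (interval -0.03 to 0.71), and the difference between them changed by -0.11 (adjusted p = 0.762 in the exact permutation test). The other deacetylases with a positive change were Hdac5 (0.15), Hdac4 (0.15) and Hdac8 (0.10), and Hdac6 (-0.05), Hdac11 (-0.07) and Hdac7 (-0.10) were on the negative side.

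The 6 sirtuins, deacylases that consume NAD, had changes in both directions and none passed. The nuclear deacetylase Sirt1 had the smallest adjusted p (0.201) and measured 8.75, 8.63, 8.88, 8.81 and 8.54 in HCC, against 8.55, 8.63, 8.35 and 8.38 in control liver. The mitochondrial deacetylase Sirt3 measured 8.27, 8.80, 9.05, 8.78 and 9.50 in HCC, against 9.30, 9.23, 9.27 and 9.43 in control liver. HCC arrays 1 to 4 were below every control and HCC array 5 above, giving a log2 change of -0.43 (interval -0.89 to 0.04, adjusted p = 0.279). HCC array 5 was also the array on which the summed hepatocyte genes were near the control level, and a link of Sirt3 to that sum was not tested. Sirt7 (-0.32), Sirt2 (-0.13), Sirt5 (-0.07) and Sirt6 (0.01) had intervals that included 0.

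Of 4 lysine demethylases none passed, though Kdm1a and Kdm5b were higher on all HCC arrays. Kdm1a (LSD1), which removes methyl groups from histone H3 lysine 4 in the CoREST complex, measured 8.84, 8.93, 8.84, 8.59 and 8.60 in HCC, against 8.35, 8.37, 8.11 and 8.36 in control liver. Its fold was 1.38 (log2 change 0.46, interval 0.24 to 0.69, adjusted p = 0.0635; 0.0302 without HCC array 5 and 0.0909 to 0.171 without any 1 other array). Kdm5b, also an eraser of H3 lysine 4 methylation, measured 8.54, 8.77, 8.12, 8.17 and 8.10 in HCC, against 7.97, 7.50, 7.43 and 7.99 in control liver. Control arrays 1 and 4 lay just under the lowest HCC arrays, and the fold was 1.54 (log2 change 0.62, interval 0.21 to 1.03, adjusted p = 0.122). Kdm2b changed by 0.10 (interval -0.09 to 0.29) and Kdm4a was level between the groups (interval -0.17 to 0.17).

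Smyd2 was the member with the most negative change. Smyd2 and Smyd3 are lysine methyltransferases with a split SET domain that act on histones and on proteins of the cytoplasm. Smyd2 measured 7.87, 7.29, 6.25, 7.26 and 7.89 in HCC, against 8.24, 8.32, 8.56 and 7.93 in control liver. Every HCC array was below every control, but HCC arrays 1 and 5 were only just below control array 4, and the log2 change of -0.95 did not pass (interval -1.66 to -0.24, adjusted p = 0.153). Smyd3 measured 7.82, 7.53, 7.25, 7.47 and 7.53 in HCC, against 7.30, 7.23, 7.31 and 7.41 in control liver, with only HCC array 3 in the control range (log2 change 0.21, adjusted p = 0.304). Smyd3 minus Smyd2 averaged 0.21 ± 0.51 in HCC and -0.95 ± 0.31 in control liver, and all 5 HCC arrays were above all controls. The difference of 1.15 passed the exact permutation test (two-sided p = 0.0159, adjusted p = 0.0423 over 8 pairs).

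**Figure D3:**
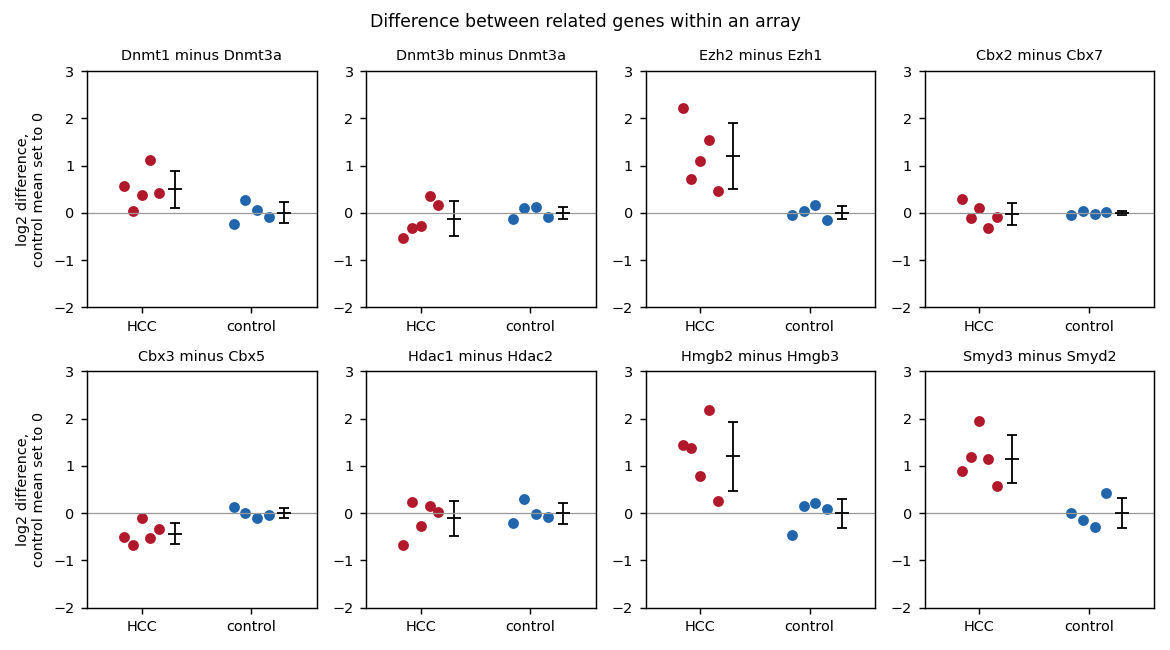
Log2 difference between 2 related genes within each array, with the control mean set to 0, for 8 pairs; points are arrays (5 HCC, 4 control), and the bars beside them are mean and SD. Ezh2 minus Ezh1, Hmgb2 minus Hmgb3 and Smyd3 minus Smyd2 lie above every control on all 5 HCC arrays, and Cbx3 minus Cbx5 lies below every control on 4 of 5.

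The differences of 4 pairs that passed the exact permutation test (Ezh2 and Ezh1, Hmgb2 and Hmgb3, Smyd3 and Smyd2, Cbx3 and Cbx5) kept their sign with any 1 array left out. All pairs were drawn from members chosen with earlier results of these data known, and the adjustment over 8 pairs does not cover that choice. With 4 HCC and 4 control arrays the smallest exact p is 0.0286, which gives an adjusted p of 0.0571 when 4 of 8 pairs reach it. Without 1 HCC array the adjusted exact p of the called pairs was 0.0571 to 0.114, so some fits lay above that value. Not passing there does not decide whether the calls hold. Without 1 control array the smallest possible values are 0.0179 and 0.0357, and none of the 4 pairs passed (adjusted exact p 0.0714 to 0.107).

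High-mobility-group proteins bend or loosen DNA, and Hmgb2 is the form of this family known from proliferating and embryonic tissue. Hmgb2 measured 11.52, 10.94, 10.45, 11.11 and 9.55 in HCC, against 8.47, 9.28, 9.41 and 9.07 in control liver. All HCC arrays were above all controls, though HCC array 5 by only a little, at a fold of 3.16 (log2 change 1.66, interval 0.82 to 2.50, adjusted p = 0.0683). Without HCC array 5 the log2 change was 1.95 (adjusted p = 0.00867), and without any 1 other array it was 1.46 to 1.77 (adjusted p between 0.104 and 0.183). Its 4 probe sets gave changes between 1.63 and 1.73, and such copies can share signal. Hmgb3 measured 10.06, 9.55, 9.66, 8.92 and 9.29 in HCC, against 8.91, 9.12, 9.19 and 8.97 in control liver. HCC array 4 lay in the control range, and the log2 change was 0.45 (adjusted p = 0.248). Hmgb2 minus Hmgb3 averaged 1.22 ± 0.73 in HCC and 0.01 ± 0.30 in control liver, higher on 5 of 5 HCC arrays, a difference of 1.21 (exact permutation two-sided p = 0.0159, adjusted p = 0.0423 over 8 pairs). Hmga2, an AT-hook protein of fetal tissue and many tumours, measured 6.88 ± 0.04 in HCC and 6.91 ± 0.10 in control liver, with an interval of -0.18 to 0.12 for its log2 change.

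Arid2 and Arid1a are DNA-binding subunits of the PBAF and BAF forms of the SWI/SNF remodelling complex, both mutated in human liver cancer. Arid2 measured 8.24, 8.15, 8.32, 8.12 and 7.88 in HCC, against 7.84, 7.80, 7.78 and 7.76 in control liver. The groups were separate, with the small fold of 1.27 (log2 change 0.35, interval 0.15 to 0.55, adjusted p = 0.0961; 0.0195 without HCC array 5 and 0.127 to 0.218 without any 1 other array). Arid1a measured 8.24 ± 0.15 in HCC and 8.04 ± 0.18 in control liver, with overlapping arrays (log2 change 0.20, interval -0.04 to 0.45).

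**Figure D4:**
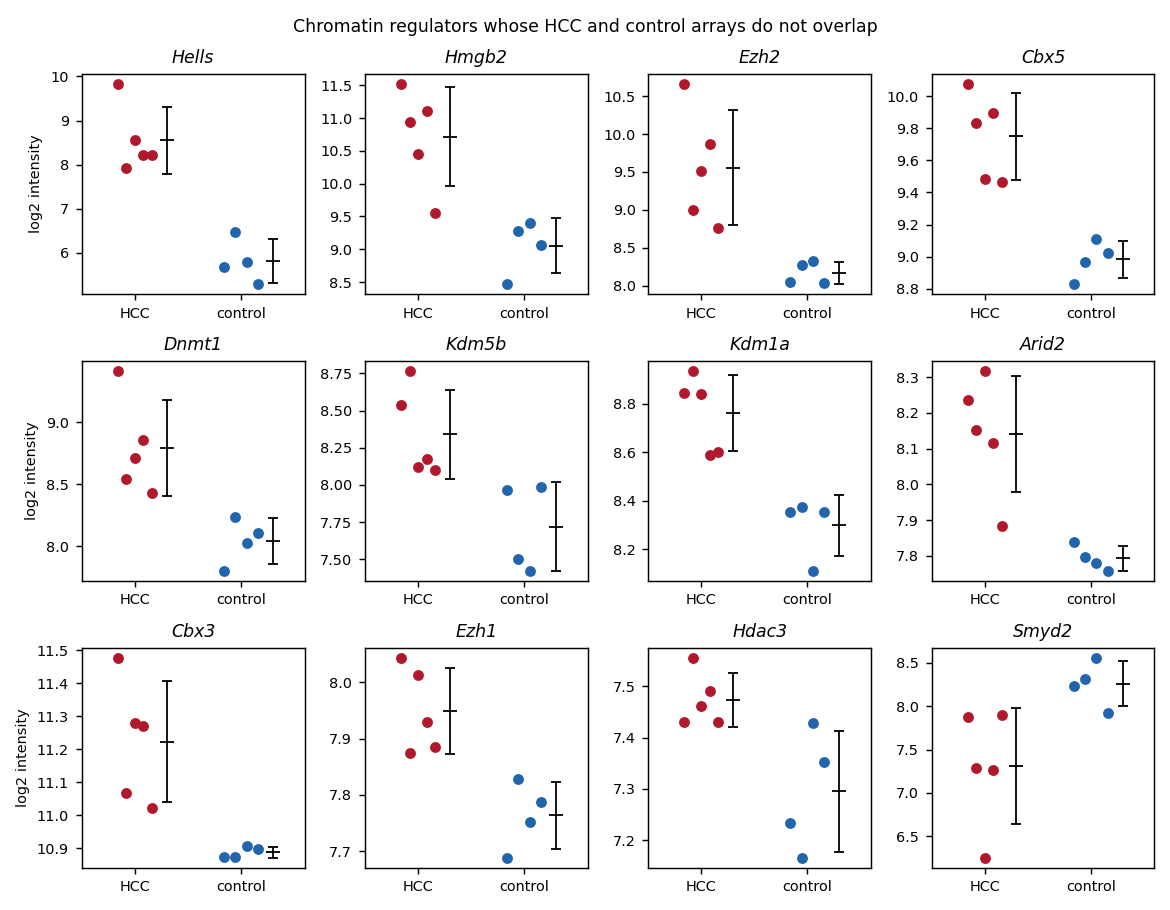
Log2 intensity on each array for the 12 regulators whose HCC and control arrays do not overlap; points are arrays (5 HCC, 4 control), the bars beside them are mean and SD, and each panel has its own axis. The 11 genes from Hells to Hdac3 are higher on every HCC array, and Smyd2 is lower on every HCC array.

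Other chromatin genes were read from 8 lists of 138 names, of which 130 were measured. Of those, 5 (3.85%, against 0.858% of all genes) rose and none fell. In 25 (19.2%, against 5.63% of all genes) all HCC arrays were above all controls, and in 3 all were below (3.86% of all genes). Hmgn2, a nucleosome-binding protein, had the smallest adjusted p, at 11.77, 11.60, 11.99, 12.03 and 11.57 in HCC, against 10.97, 10.98, 11.22 and 10.85 in control liver (log2 change 0.79, limma adjusted p = 0.0346). Hat1, which acetylates new histone H4 before it is laid down, rose by 0.91 on the log2 scale (adjusted p = 0.0361). Hat1 measured 10.52, 9.97, 10.21, 10.08 and 10.09 in HCC, against 8.95, 9.57, 9.37 and 9.15 in control liver. The other 3 were the PBAF subunit Phf10 (0.55, adjusted p = 0.0409), the mismatch glycosylase Mbd4 of methylated CpG sites (0.60, adjusted p = 0.0460) and the Polycomb partner Mtf2 (0.81, adjusted p = 0.0497). For each of the 5, all HCC arrays were above all controls. In the lists without a call, the members with the smallest adjusted p were the arginine methyltransferase Prmt5 (0.75, adjusted p = 0.0559) and the H3K9 methyltransferase Setdb1 (0.34, 0.0917), the NuRD remodeller Chd4 (0.61, 0.0558) and its partner Mta2 (0.41, 0.109), and the demethylases Kdm3a (0.69, 0.0868) and Kdm5a (0.55, 0.115). The count of 5 calls became 15 without HCC array 5, 2 and 1 without HCC arrays 1 and 2, and 0 without any 1 of the other 6 arrays in limma, in a repeat chosen after seeing the data. Higher calls over all genes rose without HCC array 5 and fell in the other fits, as given above. The summed proliferation genes were also higher on every HCC array, as given above, and a link of the 5 calls to them was not tested.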

How the data were processed

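Total RNA of 9 samples was hybridised to 1 array each. The authors deposited 1 intensity per probe set and array, made with RMA (per the submitters' processing notes). GenePattern and R were used by the authors, per the labels, with versions not given in the sources used here. That intensities are linear, not log2, follows from their range, which ran from 3.91 to 21468 over 35512 probe sets. The number of arrays limits the precision.

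Values were transformed to log2 with no floor. The platform annotation gave the gene names: 21789 probe sets had 1 symbol, 1621 several and 12102 none. Only those with 1 symbol were used, 1 per gene by the highest mean (19938 genes, 999 of them with several probe sets). Of the 21789, 21698 matched a RefSeq gene table of GRCm38.p6, used for names and promoter windows. HCC minus control was fitted with limma 3.58.1 (R 4.3.3; lmFit, eBayes, two-sided, no term but the group), with Benjamini-Hochberg adjustment over all 19938 genes. The script was tested on simulated data. Differences between 8 pairs of related members were tested by exact two-sided permutation over 126 splits, whose smallest p is 0.00794, and adjusted over the 8 pairs. A further planned pair, Hmga2 and Hmga1, was not analysed here.

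Members and lists were chosen with earlier results of these data known. Per-array values are given for members past the threshold, without overlap between groups, with a log2 change of at least 1 in size, or in a pair. The member of each role group with the smallest adjusted p is also named, and Tet1, Bmi1 and Sirt3 were added after their values were seen. Of the other chromatin genes, those past the threshold were named, or 2 per list without a call. Alternatives were a filter on low genes, repeated quantile normalisation, array medians, a trended robust prior, array weights, other probe set rules, a replicate block, the Xist level in the fit, and each array left out in turn. Tables and plots used Python 3.11.15, pandas 2.3.3, numpy 2.4.6 and matplotlib 3.10.9.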

Additional observations from a re-analysis of the deposited data

Results flagged for a closer look

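Among the 45 members, 90 groups of arrays (HCC or control) were checked for 1 array whose gap to its nearest neighbour was large relative to the range of its group, and 10 had such an array. The cut-offs would flag about 1 group in 20 if values were independent, normal and without ties. Some of these groups held equal values, so the 10 cannot be set against that rate. Most of the gaps were small on the log2 scale.

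A pair of them involved HCC array 1, on which Tet1 was 9.06 (6.86 to 7.48 on the other HCC arrays) and Hdac7 was 6.51 (6.80 to 6.82). Control array 1 stood apart for Dnmt3b at 6.46 (6.61 to 6.64 on the other controls), for Hdac7 at 6.94 (6.82 to 6.83) and for Sirt5 at 7.06, where the other 3 controls were equal at 7.05. Control array 2 stood apart for Uhrf1 at 7.49 (6.99 to 7.06), which is the control value that reached the lowest HCC arrays. Control array 3 was low for Kdm1a at 8.11 (8.35 to 8.37). Control array 4, the control with low Xist, was high for Cbx7 at 7.01 (6.77 to 6.79), Hdac6 at 6.78 (6.70 to 6.71) and Sirt2 at 9.50 (9.31 to 9.34).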

How the results depend on the processing

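The main counts were 2 members higher and none lower in HCC, and 171 genes higher and 32 lower over all genes. Members higher numbered 4 with only genes above the median level (285 and 93 over all genes), 7 with array weights (503 and 246), 1 after repeated quantile normalisation (49 genes lower), 1 with a trended robust prior and 1 with the replicate block (259 and 220), which leaves out HCC array 5. Leaving out 1 array at a time gave 0 to 8 members higher, 10 to 631 genes higher and 0 to 556 lower. The 5 other chromatin genes called higher became 9 with genes above the median level, 14 with array weights and 3 with the robust prior. No member was called lower in any alternative run. Hells was the 1 call left under quantile normalisation, the robust prior and the block, with a log2 change of 2.82 and an adjusted p of 0.0452 under the block. Same-numbered arrays correlated at 0.00, 0.32, -0.03 and -0.08 in their deviations, so the numbers were not taken as pairs. Over the 26 members given per array, no log2 change turned sign except that of Cbx7 (-0.085 to 0.0071 when leaving out 1 array). For the related genes, leaving out 1 array gave 0.95 to 1.39 for Ezh2 minus Ezh1, 0.97 to 1.45 for Hmgb2 minus Hmgb3, 0.96 to 1.30 for Smyd3 minus Smyd2, -0.51 to -0.37 for Cbx3 minus Cbx5 (-0.32 and not past the threshold after quantile normalisation), 0.35 to 0.61 for Dnmt1 minus Dnmt3a, -0.24 to -0.02 for Dnmt3b minus Dnmt3a, -0.11 to 0.051 for Cbx2 minus Cbx7 and -0.19 to 0.034 for Hdac1 minus Hdac2. Without 1 control array none of the 4 called pairs passed (adjusted exact p 0.0714 to 0.107), and without 1 HCC array 4 pairs at the smallest p could not have passed. The cause of these shifts was not tested.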
